A study of Mus musculus with 4 samples.

Results

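The genes described here encode 10 receptor chains for interleukins and interferon-gamma: Il7r, Il4ra, Il6ra, Il6st, Il10ra, Il18r1, Il21r, Il27ra, Ifngr1 and Ifngr2. They were chosen by name, with earlier results of these data known, as 10 of the 19938 genes measured. Each was read by 1 probe set that names no other gene. All 10 were among the 12591 genes whose mean over the arrays lay above background. Their RNA was measured on 4 Affymetrix Mouse Gene 1.0 ST arrays, 1 for each population of CD4+CD8- thymocytes sorted from C57BL/6n mice aged 8 weeks, after CD8+ cells had been removed with magnetic beads. The wild-type (WT, miR-142+/+) arrays came from 1 pool of 5 mice, 3 female and 2 male, and the miR-142-/- arrays from 1 pool of 4 mice, 1 female and 3 male. Each pool gave a CD69+Qa2- array, the less mature stage, and a CD69-Qa2+ array, the more mature stage. For the miR-142-/- Qa2- sample the free-text description says Qa2+, whereas the title and the sorting entry say Qa2-, and those were followed.

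Cytokine receptors are built from chains that bind the ligand and chains that carry the signal. The class I chains of interleukin-4, 6, 7, 21 and 27 and the class II chains of interleukin-10 and interferon-gamma signal through JAK kinases and STAT factors, and the interleukin-18 receptor signals through MyD88 and IRAK kinases. Interleukin-7 sustains thymocytes and naive T cells, and as CD4 thymocytes mature before leaving the thymus they gain the capacity to respond to cytokines and to divide. The arrays measure RNA only, so receptor protein and signalling were not measured, and in a sorted population fewer cells with a transcript cannot be told apart from less transcript per cell. The design addresses how the chains differ between the stages and whether the loss of miR-142, a microRNA abundant in blood cells, goes with a difference at either stage.

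Levels are log2 values, so a difference of 1 is 2-fold. A gene counted as above background when its mean exceeded 5.87, the level that only the brightest 5% of 1194 olfactory and vomeronasal receptor genes exceeded, and the 10 chains lay above it on all 4 arrays. Levels of different genes were not compared, because probes differ in brightness. The labelled groups were recovered in the targeted gene, with Mir142 between 9.41 and 10.11 on the WT arrays and at 5.29 or lower on the miR-142-/- arrays. Cd69 fell from 11.32 to 10.55 in WT and from 11.51 to 10.55 in miR-142-/-. The T cell genes Cd4 and Cd3e lay between 12.36 and 12.92 on every array. Xist, the X-inactivation RNA, was at 12.14 or higher on the WT arrays and at 5.06 or lower on the others, while Y-linked Kdm5d was at 5.05 or lower in WT and at 9.72 or higher without miR-142. These values do not match pools of both sexes, so that sex and genotype cannot be told apart in any genotype difference given here.

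The sequences missing from the miR-142-/- mice are those of the mature strands cut from the Mir142 hairpin. They are shown because a microRNA pairs with target RNAs mainly through its seed, bases 2 to 8, which are in capitals. They are RefSeq entries on GRCm38.p6, on the plus strand at chr11:87756867-87756887 for the 5p strand and chr11:87756903-87756925 for the 3p strand.
mmu-miR-142a-5p: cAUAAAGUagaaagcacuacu
mmu-miR-142a-3p: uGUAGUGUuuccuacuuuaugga
The seeds differ, so the strands recognise different sites. Target sites in the receptor transcripts were not searched here.

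Between the stages, 5 of the 10 chains rose in Qa2+ cells (Il18r1, Il6ra, Ifngr1, Il27ra and Il21r), 1 fell (Ifngr2), and 4 did not pass the test (Il7r, Il4ra, Il6st and Il10ra). The test was limma on the difference averaged over genotypes, with genotype as a block and Benjamini-Hochberg adjustment over all 12591 genes. By the same test 4.77% of all genes rose and 8.35% fell. That balance turns with the scaling, from 600 genes that rose and 1051 that fell as deposited to 1076 and 721 after centring each array on its median and 977 and 765 after quantile normalization, while the 10 chains gave 5 and 1 under each. The median stage difference of the chains was 0.32, against -0.06 for all genes. The chains were chosen with earlier results of these data known, so these shares and medians describe the set and do not test it. In each of the 5 chains that rose, both Qa2+ arrays lay above both Qa2- arrays, a pattern found in 14.5% of genes, and for Ifngr2 both lay below, which held for 31% of genes. The fit rests on 2 pairs of arrays, 1 pair from each of 2 pools, with 1 residual degree of freedom, so its errors come mainly from the spread pooled over all genes and do not measure the spread between mice. Without the genotype block none of the 6 calls passed, with limma adjusted p-values of 0.34 to 0.40. In that fit 0 genes passed the adjusted threshold and 1544 had an unadjusted p below 0.05.

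**Figure D1:**
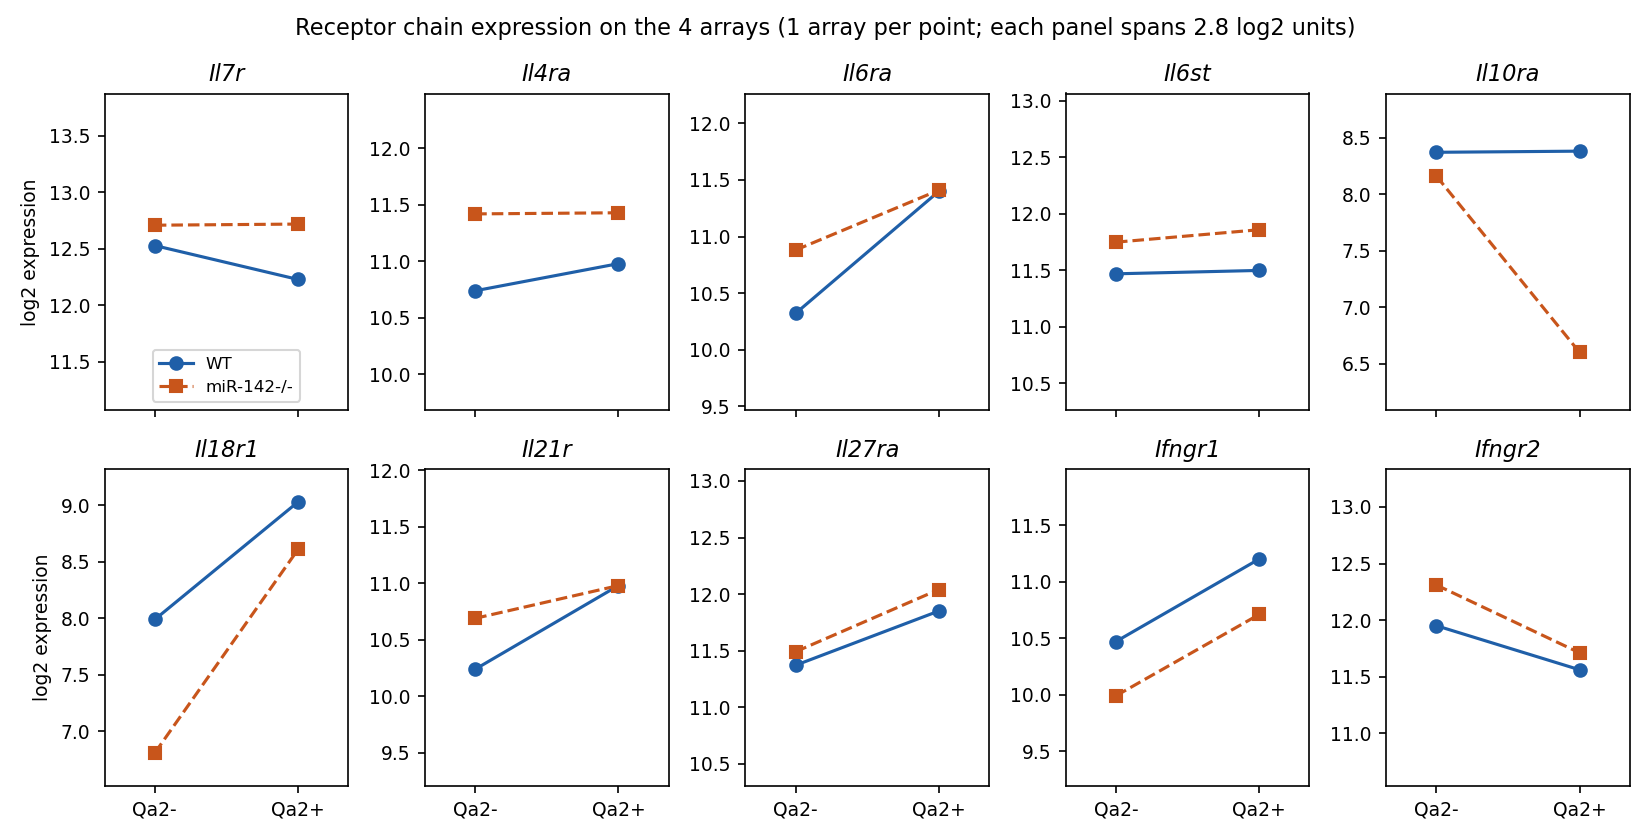
Log2 expression of each receptor gene on the 4 arrays, with the Qa2- array on the left and the Qa2+ array on the right of each panel, WT as blue circles and miR-142-/- as orange squares (1 array per point, no error bars). Ifngr1 rises and Ifngr2 falls along near-parallel lines, the lines of Il6ra and Il21r meet in Qa2+ cells, and Il10ra stands low in miR-142-/- Qa2+ cells alone, at 6.60.

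The chains of the interferon-gamma receptor differed between the stages in opposite directions. Ifngr1, the chain that binds interferon-gamma, read 10.47 in WT Qa2- and 11.20 in WT Qa2+ cells, and 9.99 and 10.71 in miR-142-/-. It rose by 0.72 ± 0.10 (log2 difference ± SE, limma, 2 pairs, adjusted p = 0.0043), 1.65-fold, with near-equal steps of 0.73 in WT and 0.72 in miR-142-/-. Ifngr2, the chain that brings JAK2 and completes the signalling complex, went from 11.95 to 11.56 between the WT arrays and from 12.31 to 11.71 between the miR-142-/- arrays. It fell by 0.50 ± 0.10 (limma, 2 pairs, adjusted p = 0.021), with steps of -0.39 in WT and -0.60 in miR-142-/-. Neither chain overlapped between the stages.

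The opposite directions make the sequence before each start site of interest, and the 250 bases upstream are printed 5′ to 3′ from RefSeq (GRCm38.p6), beside those of Il6ra and Il18r1, the other chains that rose by over 1.5-fold. Capitals mark every match, on either strand, to 6 short motifs: the STAT site TTCNNNGAA, the Kruppel-like factor core CACCC, the ETS core GGAAGT, the RUNX core TGTGGT, the FOXO core GTAAACA and the GC box GGGCGG. The windows are chr10:19591699-19591948 (plus strand) for Ifngr1, chr16:91546809-91547058 (plus strand) for Ifngr2, chr3:89913197-89913446 (minus strand) for Il6ra and chr1:40465302-40465551 (plus strand) for the first of 3 listed Il18r1 starts.
Ifngr1: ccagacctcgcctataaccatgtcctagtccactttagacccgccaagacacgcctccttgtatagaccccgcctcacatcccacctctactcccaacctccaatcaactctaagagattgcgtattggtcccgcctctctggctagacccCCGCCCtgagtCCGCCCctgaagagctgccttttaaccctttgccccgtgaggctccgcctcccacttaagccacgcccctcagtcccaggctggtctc
Ifngr2: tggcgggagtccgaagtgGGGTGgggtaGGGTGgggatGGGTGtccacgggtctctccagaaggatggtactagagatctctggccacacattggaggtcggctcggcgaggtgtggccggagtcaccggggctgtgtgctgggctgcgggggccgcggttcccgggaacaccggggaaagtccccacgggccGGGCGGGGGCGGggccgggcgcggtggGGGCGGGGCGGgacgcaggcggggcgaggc
Il6ra: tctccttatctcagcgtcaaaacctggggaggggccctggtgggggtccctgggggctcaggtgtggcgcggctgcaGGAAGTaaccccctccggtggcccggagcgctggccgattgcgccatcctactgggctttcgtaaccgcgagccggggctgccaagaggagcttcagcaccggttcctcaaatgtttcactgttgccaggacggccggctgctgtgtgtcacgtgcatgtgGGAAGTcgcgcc
Il18r1: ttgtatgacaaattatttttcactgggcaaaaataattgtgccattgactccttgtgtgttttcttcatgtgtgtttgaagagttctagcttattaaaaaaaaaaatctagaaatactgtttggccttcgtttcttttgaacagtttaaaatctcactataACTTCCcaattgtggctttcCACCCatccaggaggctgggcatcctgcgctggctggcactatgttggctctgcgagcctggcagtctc
The Ifngr1 window held 2 GC boxes and no match to the other motifs, and the Ifngr2 window held 4 GC boxes and 3 CACCC cores. Both are rich in G and C, at 59.2% and 74% of bases. The Il6ra window held 2 ETS cores, and the Il18r1 window 1 ETS core and 1 CACCC core. Of 32851 promoter windows of the same length, 32.7% held a GC box, 52% a CACCC core, 19.7% an ETS core, 14% a RUNX core, 7.02% the STAT site and 3.17% the FOXO core. RefSeq promoters were matched for 8 of the 10 genes, with Il10ra and Il27ra unmatched. Among the matched genes the STAT site was found upstream of Il7r and of the third Il18r1 start. A match is a description of letters and not of a bound site.

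In the gp130 family the ligand-binding chains rose while the shared chain did not pass the test. Il6ra, the interleukin-6 receptor alpha chain, read 10.32 in WT Qa2- and 11.40 in WT Qa2+ cells, and 10.88 and 11.41 in miR-142-/-. It was therefore lowest in WT Qa2- cells, and the Qa2+ arrays were alike. It rose by 0.81 ± 0.14 (limma, 2 pairs, adjusted p = 0.01), 2.11-fold in WT and 1.45-fold in miR-142-/-.

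Il27ra, which pairs with gp130 to bind interleukin-27, went from 11.37 to 11.85 between the WT arrays and from 11.49 to 12.04 between the miR-142-/- arrays. It rose by 0.51 ± 0.10 (limma, 2 pairs, adjusted p = 0.015), with steps of 0.48 in WT and 0.55 in miR-142-/-. Il6st, which encodes gp130 itself, was at 11.47 and 11.50 on the WT arrays, Qa2- first, and at 11.75 and 11.86 on the miR-142-/- arrays, which both lay above both WT arrays. Its stage difference was 0.07, with a limma 95% interval of -0.16 to 0.30. In this fit the interval leaves out differences as large as those of Il6ra and Il27ra, but it does not measure the spread between mice. Without the genotype block the standard error was 0.19, against 0.10 with it.

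The chains that pair with the common gamma chain were not alike. Il21r, the interleukin-21 receptor, went from 10.24 to 10.98 between the WT arrays and from 10.69 to 10.98 between the miR-142-/- arrays. It rose by 0.51 ± 0.13 (limma, 2 pairs, adjusted p = 0.036), and like Il6ra it was lowest in WT Qa2- cells with equal levels on the Qa2+ arrays. Its step was 0.74 in WT and 0.29 in miR-142-/-.

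Il7r, the interleukin-7 receptor alpha chain, went from 12.53 to 12.23 between the WT arrays and from 12.71 to 12.72 between the miR-142-/- arrays. Its highest and lowest arrays were 0.49 apart, and WT Qa2+ cells were lowest. The stage difference was -0.15, with a limma 95% interval of -0.41 to 0.11 (adjusted p = 0.42). Il4ra, the chain that binds interleukin-4, went from 10.74 to 10.98 between the WT arrays and from 11.42 to 11.43 between the miR-142-/- arrays. Its stage difference was 0.12, with an interval of -0.12 to 0.37 (limma, adjusted p = 0.48). In the fit with the genotype block, the intervals of both genes leave out a stage difference as large as that of Il18r1 or Ifngr1. They do not measure the spread between mice, and they depend on the model. Without the block the standard errors were 0.2 for Il7r and 0.29 for Il4ra, against 0.11 for each with it.

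Il18r1, the chain that binds interleukin-18, had the largest rise of the 10. It read 7.99 in WT Qa2- and 9.03 in WT Qa2+ cells, and 6.81 and 8.61 in miR-142-/-, so that miR-142-/- Qa2- cells were lowest. It rose by 1.42 ± 0.17 (limma, 2 pairs, adjusted p = 0.0025), 2.06-fold in WT and 3.48-fold in miR-142-/-. Its reading of 6.81 was dim, close to 6.75, the 99th percentile of the olfactory and vomeronasal genes. Il18rap, the accessory chain needed for the signal, read 6.55 in WT Qa2- cells and 5.21 in WT Qa2+ cells, and 5.61 and 5.48 on the miR-142-/- arrays, all but the first below the background threshold. Its mean was below background too, so it was not tested, and it differed between the WT stages in the direction opposite to Il18r1.

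Il10ra, the ligand-binding chain of the interleukin-10 receptor, was the chain whose stage step differed most between the genotypes. It was at 8.37 on the WT Qa2- array and 8.38 on the WT Qa2+ array, at 8.16 on the miR-142-/- Qa2- array and at 6.60 on the miR-142-/- Qa2+ array. The last alone was low, while the other 3 lay between 8.16 and 8.38. The value of 6.60 was dim, above the background threshold of 5.87 but below 6.75, the 99th percentile of the olfactory and vomeronasal genes. The miR-142-/- step and the genotype difference in Qa2+ cells therefore rest on 1 dim reading. The step was 0.01 in WT and -1.56 in miR-142-/-, 2.95-fold lower. Averaged over genotypes it was -0.77 ± 0.30 (limma, 2 pairs, adjusted p = 0.13), which did not pass the test. Il10rb, the partner chain, rose by 0.50 ± 0.12 (limma, adjusted p = 0.031), from 9.12 to 9.81 in WT and from 9.29 to 9.61 in miR-142-/-.

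**Figure D2:**
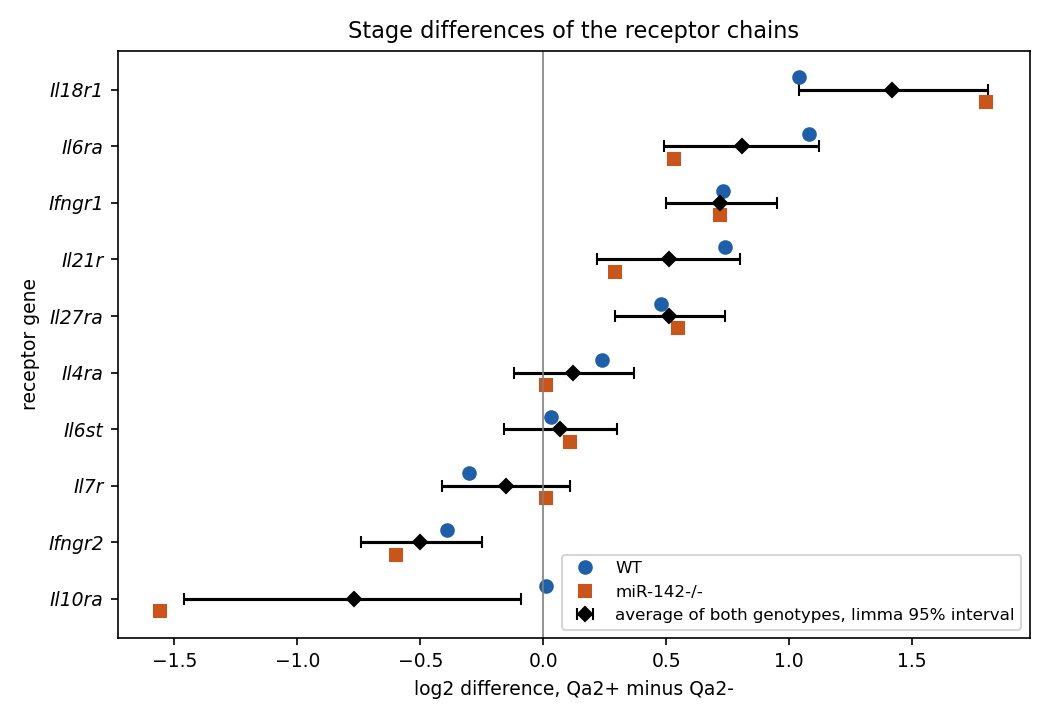
Log2 difference between Qa2+ and Qa2- cells for each receptor gene, with the average of both genotypes as a black diamond and its limma 95% interval as a bar, WT as blue circles and miR-142-/- as orange squares (1 pair of arrays each). The intervals of the 5 chains that rose lie above 0, and that of Il10ra, from -1.46 to -0.09, is the widest, its genotypes lying far apart.

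Between the genotypes there was 1 array per group at each stage, so the differences are given without a p-value or a check against replicates. In Qa2- cells Il4ra was 1.60-fold higher and Il18r1 2.27-fold lower in miR-142-/-, the only chains at least 1.5-fold apart. By that measure 3.11% of all genes were higher in miR-142-/- and 3.74% were lower. In Qa2+ cells the only chain 1.5-fold apart was Il10ra, 3.44-fold lower, a stage at which 4.56% of genes were higher in miR-142-/- and 4.88% were lower. The median differences of the 10 chains were 0.23 in Qa2- and 0.08 in Qa2+ cells, against medians of all genes at 0. The olfactory and vomeronasal genes had standard deviations of 0.15 and 0.18 for these differences, a measure of array noise in dim genes that holds nothing of the variation among mice.

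Il4ra, Il7r and Il6st lay higher on both miR-142-/- arrays than on both WT arrays, a pattern shared by 20.9% of genes, and Il10ra lay lower on both, as did 21.9%. Il4ra differed by 0.68 in Qa2- and 0.45 in Qa2+ cells, Il7r by 0.18 and 0.49, and Il6st by 0.28 and 0.37. Il6st has been reported as a target of miR-142-3p in myeloid cells, and 23.4% and 21.5% of genes lay at least as far apart as Il6st at the same stages. Ifngr1 was lower in miR-142-/- by near-equal amounts, -0.48 and -0.49, while Ifngr2 differed by 0.36 and 0.16. Il27ra differed by 0.13 and 0.19.

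**Figure D3:**
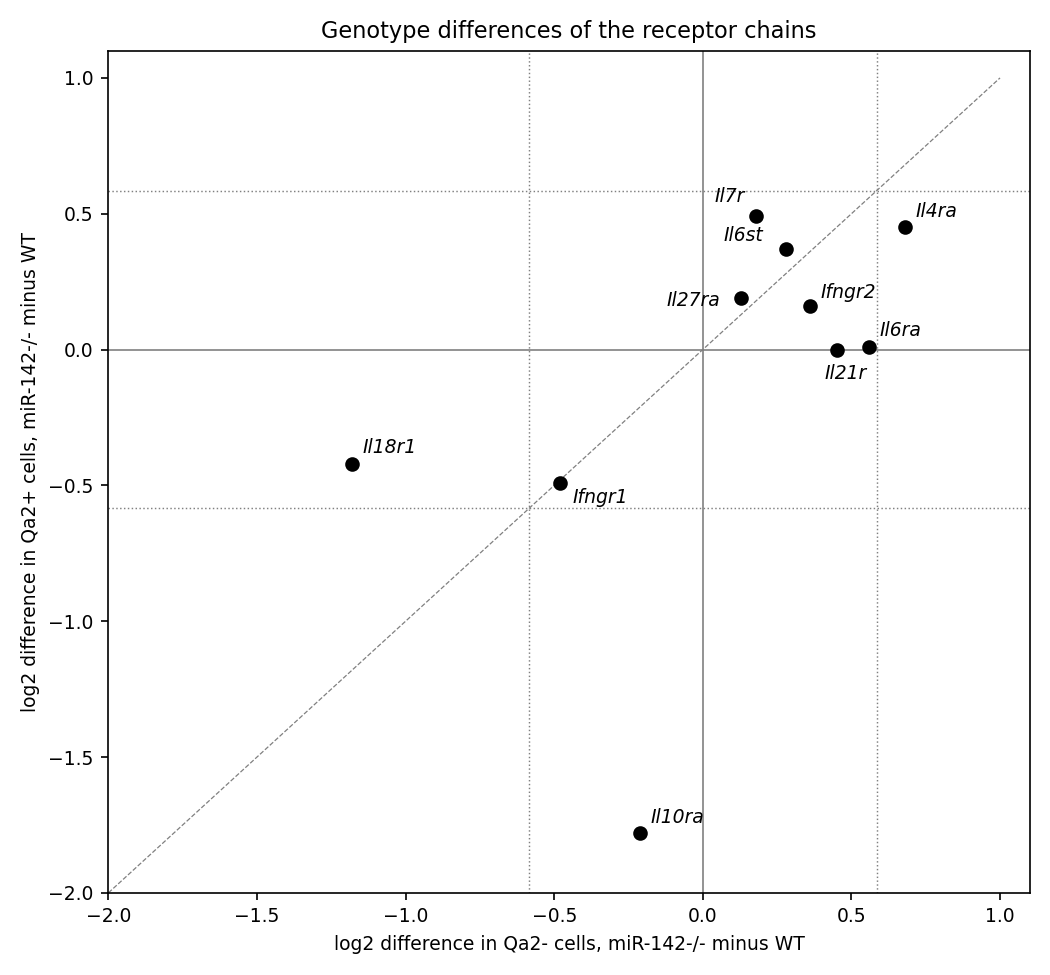
Log2 difference between miR-142-/- and WT for each receptor gene in Qa2- cells (horizontal axis) and Qa2+ cells (vertical axis), 1 array per group, with dotted lines at 1.5-fold and a dashed line of equal differences. Ifngr1 lies on the line of equal differences, Il6ra and Il21r lie at 0 in Qa2+ cells, and Il4ra, Il10ra and Il18r1 each pass 1.5-fold at a single stage.

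The step from Qa2- to Qa2+ had the same sign in both genotypes for 8 of the 10 chains, all but Il7r and Il10ra, and opposite signs were found in 28.2% of all genes. At least 1.5-fold, 4 chains were higher in WT Qa2+ cells (Il6ra, Il18r1, Il21r and Ifngr1) and 0 were lower, against 2.69% and 3.69% of all genes. In miR-142-/- 2 were higher (Il18r1 and Ifngr1) and 2 lower (Il10ra and Ifngr2), against 2.65% and 3.64%. After centring, 4 were higher and 1 lower in miR-142-/-, and after quantile normalization 3 and 1, so the smaller count of rises in miR-142-/- depends on the scaling. The miR-142-/- step minus the WT step was -1.58 for Il10ra, 0.76 for Il18r1, -0.54 for Il6ra and -0.45 for Il21r. It was 0.31 for Il7r, -0.23 for Il4ra and -0.21 for Ifngr2. It lay within 0.1 of 0 for Il6st, Il27ra and Ifngr1. At 1.5-fold, 1 chain had the larger and 1 the smaller or more negative step in miR-142-/-, Il18r1 and Il10ra, against 1.82% and 1.6% of all genes. At least as far from 0 as Il10ra were 0.0953% of genes, as Il18r1 1.48%, as Il6ra 4.21% and as Il21r 7.64%. No test is possible for these differences, which leave no residual degrees of freedom.

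Among all genes above background, the closest profiles over the 4 arrays were found for the 4 chains whose arrays spanned at least 1. Closeness was the Euclidean distance between values centred on the gene mean. With 4 arrays and 12591 genes, close profiles are to be found for most genes, so a small distance is a description and was not tested. For Il6ra the nearest were Socs2 (distance 0.0759), Elovl7 and H2-Aa. For Ifngr1 they were Jun (0.11), Tdrp and Tspo. For Il18r1 they were Emp3 (0.23), Ms4a6b and Man1c1. For Il10ra they were Akr1e1 (0.313), Id3 and Rad51ap1. Socs2, the nearest gene of all, went from 6.36 to 7.36 between the WT arrays and from 6.82 to 7.40 between the miR-142-/- arrays, the same order of arrays as for Il6ra. Id3, an inhibitor of E proteins, went from 8.88 to 9.04 in WT and from 8.80 to 7.58 in miR-142-/-, low on the same array as Il10ra.

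The other receptor chains moved in both directions. Of 30 listed, 26 had a single-gene probe set and 21 were above background. Of these 4 rose and 3 fell, against 4.77% and 8.35% of all genes. Il2ra, the high-affinity interleukin-2 chain, rose by 0.70 ± 0.10 and Il17ra, a chain shared by interleukin-17 receptors, by 0.61 ± 0.10 (limma, adjusted p = 0.0049 and 0.0086). Tgfbr2, the ligand-binding receptor of TGF-beta, rose by 0.38, and Il10rb is given above. Il17rb, the interleukin-25 chain, fell by 1.06 ± 0.11, Il12rb1 by 0.59 ± 0.10 and Il12rb2 by 1.01 ± 0.25 (limma, adjusted p = 0.0019, 0.0096 and 0.036). The last 2 are the interleukin-12 receptor chains, and Il12rb2 differed by -1.65 in WT and -0.37 in miR-142-/-. Between the genotypes, Il2rb, the interleukin-2 and interleukin-15 beta chain, differed by -1.04 in Qa2- and -1.37 in Qa2+ cells (miR-142-/- minus WT). Crlf2, which pairs with the Il7r chain to bind TSLP, differed by -0.34 and -0.58, Il17rb by 0.53 and 0.85, and Tnfrsf1a, a TNF receptor, by 0.38 and 0.55. Of the partners of the 10 chains, Il13ra1, Lifr and Osmr were below background on all arrays, and the common gamma chain Il2rg and Il11ra1 had no single-gene probe set.

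**Figure D4:**
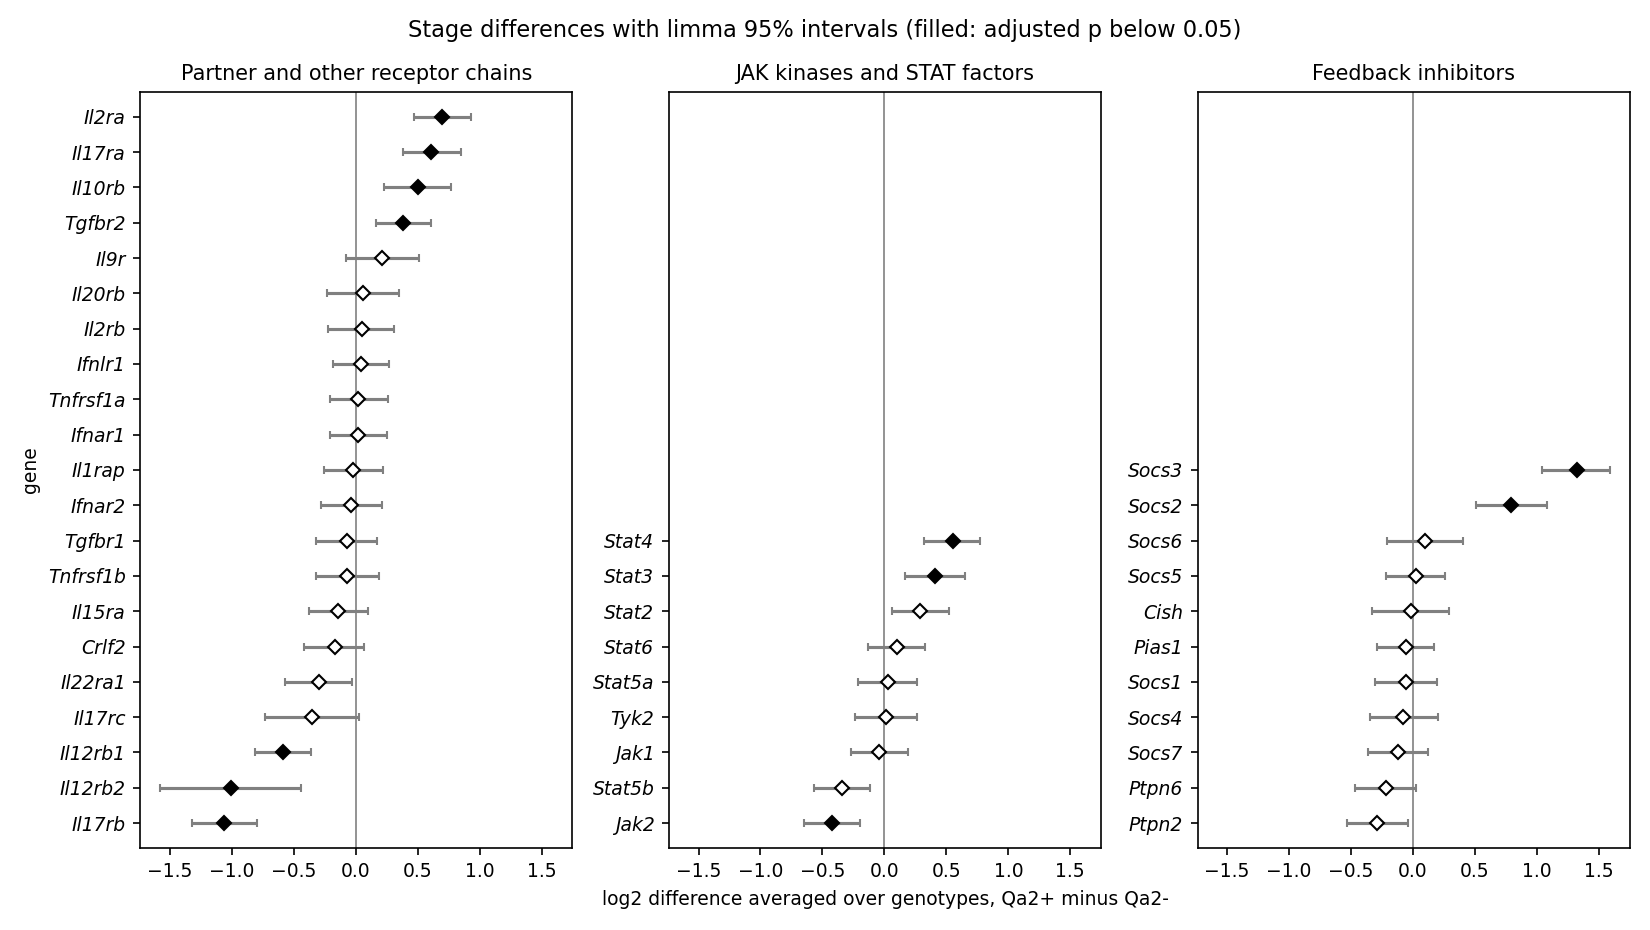
Log2 difference between Qa2+ and Qa2- cells averaged over genotypes, with limma 95% intervals, for every gene above background on the lists of other receptor chains, JAK and STAT genes and feedback inhibitors (2 pairs of arrays, filled symbols for adjusted p below 0.05). Receptor chains lie on both sides of 0, from Il17rb at -1.06 to Il2ra at 0.70, and Socs3 and Socs2 stand apart from the other feedback inhibitors.

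Of 9 JAK and STAT genes, 2 rose and 1 fell, against 4.77% and 8.35% of all genes. Stat4, which carries interleukin-12 signals, rose by 0.55 and was 0.88 lower in Qa2- and 0.84 lower in Qa2+ cells of miR-142-/-. Stat3, the main factor below gp130, rose by 0.41 ± 0.10 and Jak2, the kinase bound to Ifngr2, fell by 0.42 ± 0.10 (limma, adjusted p = 0.038 and 0.029). Jak2 thus fell together with Ifngr2, with steps of -0.42 in WT and -0.43 in miR-142-/-. Below the interleukin-18 receptor, Irak1 and the inhibitory receptor Sigirr rose by 0.41 and 0.44, 2 of 7 genes, with none falling. Of 11 feedback inhibitors 2 rose, Socs3 by 1.32 and Socs2 by 0.79 ± 0.12 (limma, adjusted p = 0.0072 for Socs2).

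The response genes were mixed, and over all genes 4.77% rose and 8.35% fell. Of 10 genes known to respond to interleukin-7 or STAT5, 4 rose and 0 fell. They were Socs2, the survival kinases Pim1 and Pim2, and the cytokine gene Osm, with rises of 0.79, 0.79, 0.54 and 0.61, while Cish, the classic STAT5 target, differed by -0.02 and Bcl2 by -0.20. Pim1 was also 0.86 and 0.91 lower in Qa2- and Qa2+ cells of miR-142-/-. Of 8 STAT3 response genes 2 rose, Socs3 and Pim1, and of 7 interleukin-4 response genes 1 fell, Gata3 by 0.87. Of 18 interferon-gamma response genes 4 rose (Gbp3, Irgm1, Iigp1 and Tap1, by 0.39 to 0.57) and 2 fell (Cd274 by 0.44 and Ciita by 0.46). Of 12 factors reported to regulate Il7r, Klf2 and Foxo1 rose by 1.14 and 0.44 and Zbtb7b fell by 0.71, beside the Il7r difference of -0.15. The lists overlap, so a gene can count in several of them.

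Of the ligands, Il4, Il6, Il7, Il10, Il18 and Il21 had means below background. Among 18 ligands 6 were above background, and Clcf1, a gp130-family cytokine, and Osm rose by 1.56 and 0.61. The interferon-gamma gene Ifng lay between 6.00 and 6.66 on the 4 arrays, near the background threshold.

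Markers of other T cells differed beside these results. In Qa2- cells 9 of 12 detected innate-like T and NKT cell genes were at least 1.5-fold lower without miR-142, against 3.74% of all genes. In Qa2+ cells 5 were, against 4.88%. The median differences of the 12 were -1.15 and -0.49, beside -1.18 and -0.42 for Il18r1. Detection was judged on the mean of the 4 arrays. Gzmb (5.62 and 5.43) and Klrd1 (5.26 and 5.84) lay below the threshold of 5.87 on both miR-142-/- arrays, Qa2- first. They passed the filter through the WT arrays, so that lower values without miR-142 were built into their detection. The summed level of the list, on a log2 scale, went from 13.37 to 12.63 between the WT arrays and from 12.87 to 12.72 between the miR-142-/- arrays. This sum, like those below, takes in every measured gene of its list, here 14, and follows the brightest probe sets. The brightest here was Id2, at 12.38 and 11.47 on the WT arrays, Qa2- first, and 12.53 and 12.29 on the miR-142-/- arrays. The sums therefore do not measure the share of such cells. The defining natural killer genes Klrb1c and Klrk1 had means below background and lay above the threshold on the WT Qa2- array alone, at 7.42 and 6.80. Between the stages, 1 of the 12 rose and 2 fell, against 4.77% and 8.35% of all genes, while Il18r1 rose. Of 7 regulatory T cell genes 3 rose (Foxp3, Il2ra and Ctla4) and 1 fell (Ikzf2), against the same shares of all genes. The summed levels of this list went from 13.19 to 13.30 between the WT arrays and from 13.44 to 13.18 between the miR-142-/- arrays. Between the Qa2+ arrays, where Il10ra was low in miR-142-/-, the 7 genes went both ways. Ctla4, Foxp3 and Tnfrsf4 differed by -2.65, -1.66 and -0.82 and Gpr83 by 1.27, while Il2ra (0.26), Ikzf2 (-0.06) and Tnfrsf18 (-0.14) were less than 1.5-fold apart. Between the Qa2- arrays, where Il10ra differed by only -0.21, Ctla4 and Foxp3 were also lower, by -2.61 and -1.19, and Gpr83 higher, by 1.03. There Tnfrsf4 (0.11), Il2ra (0.33), Ikzf2 (0.08) and Tnfrsf18 (0.30) were less than 1.5-fold apart. The part of such cells in the receptor differences was not tested.

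Of 7 detected effector or recirculating T cell genes 4 were at least 1.5-fold lower without miR-142 in Qa2- cells, against 3.74% of all genes. In Qa2+ cells 5 were, against 4.88%. S100a4, counted in Qa2+ cells, lay below the threshold on both miR-142-/- arrays, at 5.64 and 5.72, and passed the filter through the WT arrays. The summed levels of this list were 12.26 and 12.87 on the WT arrays, Qa2- first, and 11.26 and 11.56 on the miR-142-/- arrays. Of 6 double-positive thymocyte genes 4 rose with stage (Rag1, Dntt, Ptcra and Arpp21), against 4.77% of all genes. Cd8a and Cd8b1, which define these cells, did not pass the test and differed by -0.07 and -0.24. The summed levels of the list went from 10.65 to 11.23 between the WT arrays and from 10.48 to 11.08 between the miR-142-/- arrays. Of 8 B cell genes measured, 7 were below background, including Ms4a1 and Pax5. Of 12 myeloid and dendritic cell genes 8 were below background, including Csf1r and Adgre1, and Lyz2 rose by 1.15, from 5.87 to 7.48 in WT and from 5.98 to 6.67 in miR-142-/-. The CD8 single-positive, gamma-delta T cell, erythroid and thymic stroma lists had no gene that rose or fell between the stages. Their part in the receptor results was not tested either.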

How the data were processed

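RNA of 4 sorted populations was hybridised to 1 array each. The authors deposited log2 expression values per probe set, and the submitters' processing notes name RMA and Partek, and their versions and the genome build are not given in the sources used here. As commonly run, RMA corrects background and equalises the arrays' distributions. The deposited arrays had medians from 6.61 to 6.74, so their distributions as deposited were not equal. Differences of dim probe sets tend to be compressed in such values. Of 35557 probe sets, 21789 named 1 gene in the platform annotation, 1621 several and 12147 none. Symbols were updated by Entrez ID for 21698, and each gene took its probe set with the highest mean. The number of arrays limits the precision.

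Stage differences averaged over genotypes were tested with limma (version 3.58.1, R 4.3.3), two-sided, with genotype as a block. The prior had 6.94 degrees of freedom and the Benjamini-Hochberg threshold was 0.05. The fit was also run on simulated data with the same noise level for every gene and no genotype effect. Those settings differ from the arrays, so that run does not check the calls made here. Genotype differences were not averaged over stages, since both arrays of a genotype share a pool. Alternatives were centring, quantile normalization, averaged probe sets, other filters, no genotype block and other priors. The receptor genes and the lists were chosen with earlier results of these data known. The rule for names allowed, from each list, up to 4 genes with the largest stage difference and up to 4 with the largest shared genotype difference, besides the partners of the 10 chains. The text names some of these and some further genes chosen after their values were seen.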

Additional observations from a re-analysis of the deposited data

Results flagged for a closer look

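For 2 of the 10 chains the stage difference had opposite signs in the genotypes, and the difference between the genotypes was not tested because each has 1 pair of arrays. Il10ra differed between Qa2+ and Qa2- cells by 0.01 in WT and by -1.56 in miR-142-/-. Il7r differed by -0.30 in WT and by 0.01 in miR-142-/-. In each gene the step near 0 is smaller than the standard deviation of the olfactory and vomeronasal genes, which was 0.22 in WT and 0.21 in miR-142-/-. Opposite signs were found in 28.2% of all genes above background.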

How the results depend on the processing

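Among the 8 alternatives, only centring and quantile normalization could change the stage differences of the 10 chains, which kept their direction under both. The others change the errors or the genes tested, or average probe sets where each chain has 1, so their differences were fixed in advance. Of 80 values, 74 kept their side of the threshold. The 6 exceptions were the called chains in the fit without the genotype block, where the numbers that rose and fell were 0 and 0, as they were over all genes. Over all genes, 600 rose and 1051 fell as deposited. The number that rose was 1076 after centring each array on its median and 977 after quantile normalization, which moved the share of calls that were higher from 36.3% to 59.9% and 56.1%. Without the filter on dim genes 1593 fell. At 1.5-fold, centring brought Il6ra and Il27ra past the fold in miR-142-/-, for 4 chains higher in Qa2+ cells in place of 2, and left 1 chain lower in place of 2, as quantile normalization did, because Ifngr2 moved from -0.60 to -0.53 and -0.58. Quantile normalization put Il7r past the fold in Qa2+ cells, 0.63 higher in miR-142-/-, for 1 chain in place of 0. All 120 single differences of the chains moved by less than the standard deviation of the olfactory and vomeronasal genes. Centring adds the same shift to every gene, 0.1 at most here, so only quantile normalization could have moved one by more. Averaging probe sets changed no chain, since each has 1. No array could be left out, because each group has 1.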

Other observations

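Values of 2 further genes of these pathways stood outside the tests because their means were below background, and they were picked after their values were seen. Il21, the ligand of Il21r, read 6.28 and 6.32 in WT and miR-142-/- Qa2- cells, above the threshold of 5.87, and 4.57 and 4.59 in Qa2+ cells, below it. Il18rap was above the threshold in WT Qa2- cells alone. Il12rb2, which was tested, read highest on the same array, at 8.58, against 6.93 in WT Qa2+ cells and 7.85 and 7.48 in miR-142-/- Qa2- and Qa2+ cells.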
